A study of Mus musculus with 2 samples.

Results

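A set of 10 genes of heme breakdown, iron handling and the oxidative stress response was followed in myeloid cells of the mouse ankle joint: Hmox1, Blvrb, Fth1, Ftl1, Slc40a1, Slc11a1, Gclm, Txnrd1, Srxn1 and Slc7a11, out of 32285 genes counted. They were taken by symbol, and the set was chosen by earlier ratios of day 7 over steady state in these same libraries, so its changes between the libraries are given as a description and support nothing. The cells came from bone marrow chimeras in which CD45.2 B6 hosts had received CD45.1 B6 marrow with the ankle shielded from irradiation. The day 7 library was made 7 days after a retro-orbital injection of 200 µL of clodronate liposomes, particles that kill the phagocytes taking them up, and the steady-state library came from the same kind of chimera with no such injection named. Each library was made by CITE-seq, which counts messenger RNA and barcoded surface antibodies in single cells, from synovial cells sorted for CD45 and CD11b, with gates against CD177, Ly6C, CD64, SiglecF, Ly6G and MHCII. The number of animals pooled is not stated. With 1 library per group no test was possible, and every interval below is a 95% interval of counting error alone.

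Heme oxygenase 1, the product of Hmox1, opens the heme ring and frees iron, carbon monoxide and biliverdin, and biliverdin reductase B, encoded by Blvrb, reduces biliverdin and related compounds. The freed iron is stored in the ferritin shell of heavy (Fth1) and light (Ftl1) chains or leaves the cell through ferroportin (Slc40a1), and Slc11a1 (NRAMP1) moves iron out of the phagosome. Gclm, Txnrd1, Srxn1 and Slc7a11 maintain glutathione and thioredoxin, and these genes, Hmox1 and the ferritin chains are known targets of the transcription factor NRF2, while the heme sensor BACH1 represses many of the same genes. Tissue macrophages use this route to dispose of heme from red cells they have cleared.

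After filtering, 1200 day 7 cells with 10824984 unique molecular identifiers (UMIs) and 1630 steady-state cells with 17060676 UMIs remained, with medians of 8309 and 9558.5 UMIs per cell. Cells were gated by marker genes, none of them a member: the Ly6C-low monocyte gate held 97 day 7 and 107 steady-state cells, the classical monocyte gate 524 and 149, and the macrophage gate 144 and 831, while 233 and 247 cells passed no gate. Surface Ly6C and CD163 went with the gate names. Median Ly6C antibody shares were 219 and 33.7 per 10000 antibody counts in the Ly6C-low gate against 1131 and 686 in the classical gate. The classical gate thus carried surface Ly6C although the sort had asked for Ly6C-negative cells. CD163 shares were 2342 and 1045 in the macrophage gate. Other antibodies set these gates apart less. CD43 shares were 2439 and 2686 in the Ly6C-low and 2132 and 1711 in the classical gate. F4/80 shares were 25.7 and 29.2 in the macrophage and 24.8 and 20.2 in the classical gate. Donor-class cells by CD45.1 antibody made up 95 of 97 day 7 and 105 of 107 steady-state cells of the Ly6C-low gate, whereas the macrophage gate held 92 host-class and 12 donor-class cells at day 7 and 698 and 70 at steady state. A further 40 of the 144 day 7 and 63 of the 831 steady-state macrophages could be assigned to neither class. No cell barcode was shared between the libraries. Levels are UMIs summed over a gate's cells and scaled to a total of 1000000 (CPM), so a gate-wide level cannot by itself tell more cells with a transcript from more transcript per cell.

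At steady state Hmox1 was highest in the macrophage gate among the gates compared. It stood at 176 CPM (95% interval 167 to 185) in the macrophage gate, 64.8 CPM (55.4 to 75.2) in the cDC2 gate, 59.1 CPM (43.4 to 78.5) in the Ly6C-low gate, 51.9 CPM (41.0 to 64.9) in the classical gate and 9.49 CPM (3.48 to 20.7) in the fibroblast gate. The cDC2 and monocyte gates could not be told apart, since their intervals overlapped. Hmox1 UMIs were found in 60.4% of macrophages, 26.2% of Ly6C-low monocytes and 35.6% of classical monocytes. With every cell thinned to 3000 UMIs those shares were 30.8%, 16.7% and 8.45%. As a cell type of low Hmox1, the day 7 neutrophil gate held a Hmox1 UMI in 8 of 115 cells (6.12 CPM) at a median of 10742 UMIs per cell, against 10151 UMIs in steady-state macrophages.

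At steady state Blvrb, Fth1, Gclm and, at low levels, Srxn1 were, like Hmox1, higher in macrophages than in monocytes, and Ftl1, Txnrd1, Slc11a1 and Slc7a11 were not. On the log2 scale, macrophages over Ly6C-low monocytes gave 1.58 (1.16 to 2.03) for Hmox1, 1.80 (1.46 to 2.16) for Blvrb, 1.35 (1.31 to 1.40) for Fth1 and 3.21 (1.98 to 4.84) for Gclm, the regulatory subunit of the enzyme that starts glutathione synthesis. With Leiden clusters in place of marker gates the Hmox1 value was 0.60. The Gclm value rested on 523 UMIs in macrophages and 5 in Ly6C-low monocytes. Srxn1, at 16.6 CPM in macrophages, gave 1.40 (0.15 to 3.05) over Ly6C-low monocytes, on 149 and 5 UMIs. Over classical monocytes, with 12 UMIs, it gave 1.04 (0.19 to 2.02). Ftl1 and Txnrd1 differed little, at -0.06 (-0.11 to -0.01) and -0.01 (-0.44 to 0.44). Slc11a1 lay the other way, at 69.3 CPM in macrophages, 219 CPM in Ly6C-low and 113 CPM in classical monocytes, so its level in Ly6C-low monocytes was 3.16-fold that of macrophages and 1.94-fold that of classical monocytes.

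Slc7a11, the light chain of the transporter that imports cystine for glutathione synthesis, was higher in monocytes, neutrophils and cDC2 cells than in macrophages. At steady state it had 85 UMIs (57.3 CPM) in the 149 classical monocytes and 23 UMIs (28.9 CPM) in the 107 Ly6C-low monocytes, but 2 UMIs (0.223 CPM) in 831 macrophages, of which 0.241% held a UMI. The neutrophil gate had 116 CPM at day 7 (151 UMIs in 115 cells). Slc40a1 counts were few in every monocyte and macrophage gate. It had 73 UMIs (55.9 CPM) in the day 7 neutrophil gate and 29 UMIs (64.1 CPM) in the day 7 progenitor gate, but 1 UMI in the Ly6C-low, 0 in the classical and 2 in the macrophage gate of that library. At steady state it had 20 UMIs (2.23 CPM) in the macrophages and none in the 107 Ly6C-low and 149 classical monocytes, counts of 0 that allow up to 2.80% and 2.01% of cells with a UMI. Srxn1, which reduces overoxidised peroxiredoxins, was low in every myeloid gate (at most 21.1 CPM) and highest in the fibroblast gate, at 112 CPM (8 UMIs) at day 7 and 61.7 CPM (39 UMIs) at steady state.

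**Figure D1:**
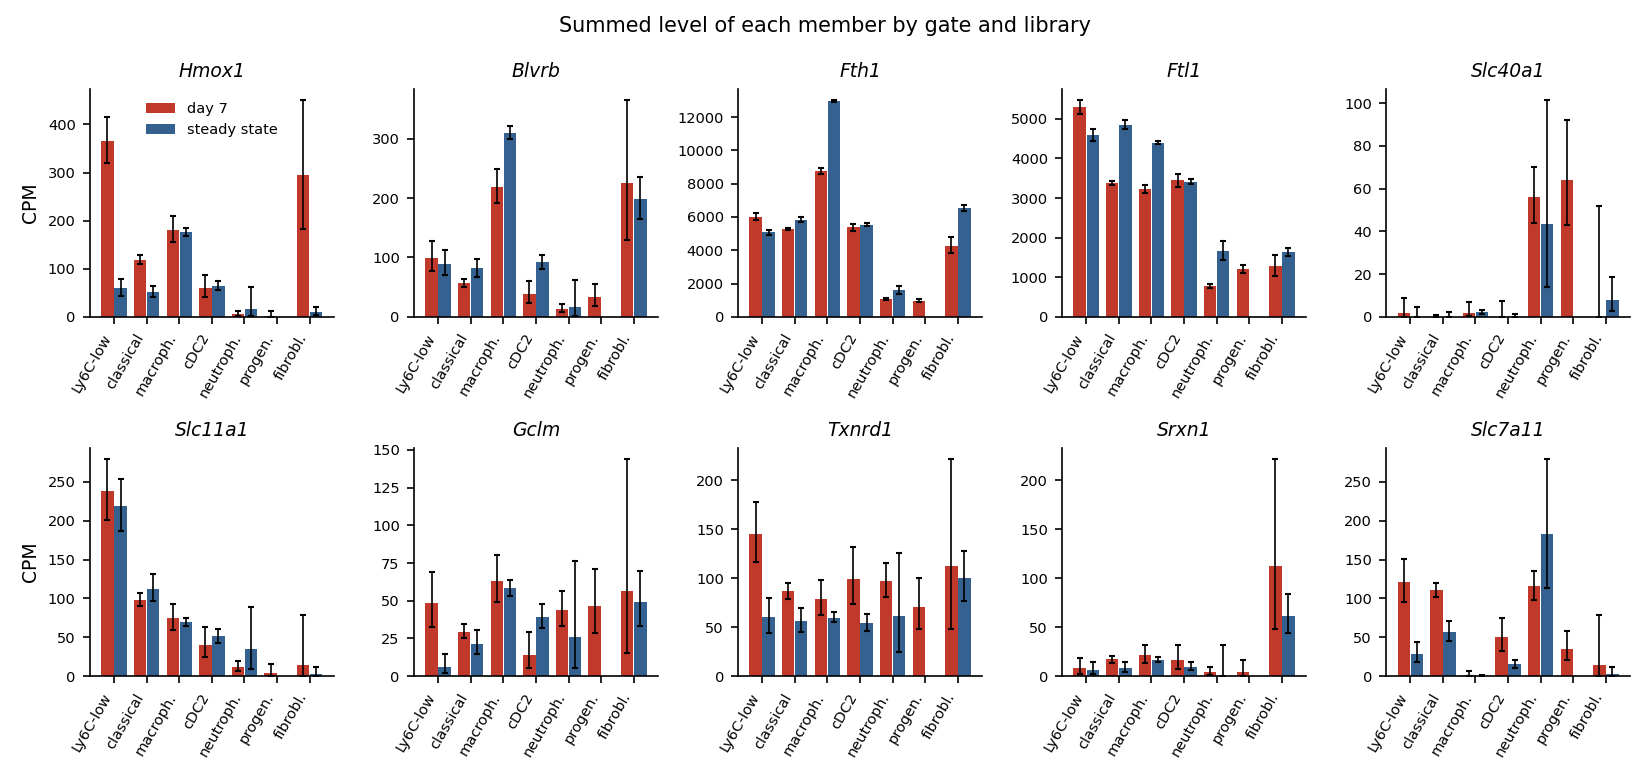
Summed level of each member (CPM) by gate, day 7 in red and steady state in blue, with 95% Poisson intervals. Hmox1 stood at 365 CPM in day 7 Ly6C-low monocytes against 59.1 CPM at steady state, and Slc7a11 was near 0 in macrophages of both libraries. The progenitor gate held no steady-state cell, the steady-state neutrophil gate held 6 cells, and each panel has its own scale.

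In the Ly6C-low monocyte gate, Hmox1 was 6.18-fold higher at day 7. It had 227 UMIs (365 CPM, 319 to 415) in 97 day 7 cells and 47 UMIs (59.1 CPM, 43.4 to 78.5) in 107 steady-state cells, a log2 ratio of 2.63 (2.17 to 3.11). With Leiden clusters in place of marker gates the log2 ratio was 1.88. Slc7a11 had 75 UMIs (121 CPM) at day 7 and 23 UMIs (28.9 CPM) at steady state, a log2 ratio of 2.06 (1.37 to 2.80). Txnrd1, the cytosolic thioredoxin reductase, had 90 and 48 UMIs (145 and 60.3 CPM; 1.26, 0.74 to 1.80). Gclm had 30 UMIs (48.2 CPM) at day 7 and 5 UMIs (6.28 CPM) at steady state (2.94, 1.56 to 4.66), but 14 of the 30 lay in 1 cell, and without the top cell of each library the log2 ratio was 2.32 (0.69 to 4.36). These were the 4 members at least 2-fold higher, of 8 with at least 20 CPM in either library, and 0 were 2-fold lower. The 4 became 3 with a stricter gate, where Gclm was not among the members measured. Over all genes at that level 6.06% were at least 2-fold higher and 4.91% lower. The median log2 ratio was 0.75 for the 8 members and 0.07 for all 5664 genes.

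The remaining members of this gate lay close to no change. Fth1 was at 6016 CPM at day 7 and 5074 CPM at steady state (0.25, 0.18 to 0.31), and Ftl1 at 5297 and 4583 CPM (0.21, 0.14 to 0.28). Blvrb had 62 and 71 UMIs (0.16, -0.36 to 0.67) and Slc11a1 148 and 174 UMIs (0.12, -0.20 to 0.45). Srxn1, with 5 UMIs in each library, and Slc40a1, with 1 and 0, were under 20 CPM. Reads of Ftl1 may be shared with its pseudogene Ftl1-ps1, which had 43 UMIs in day 7 and 33 in steady-state Ly6C-low monocytes, so a small part of the Ftl1 counts is uncertain.

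**Figure D2:**
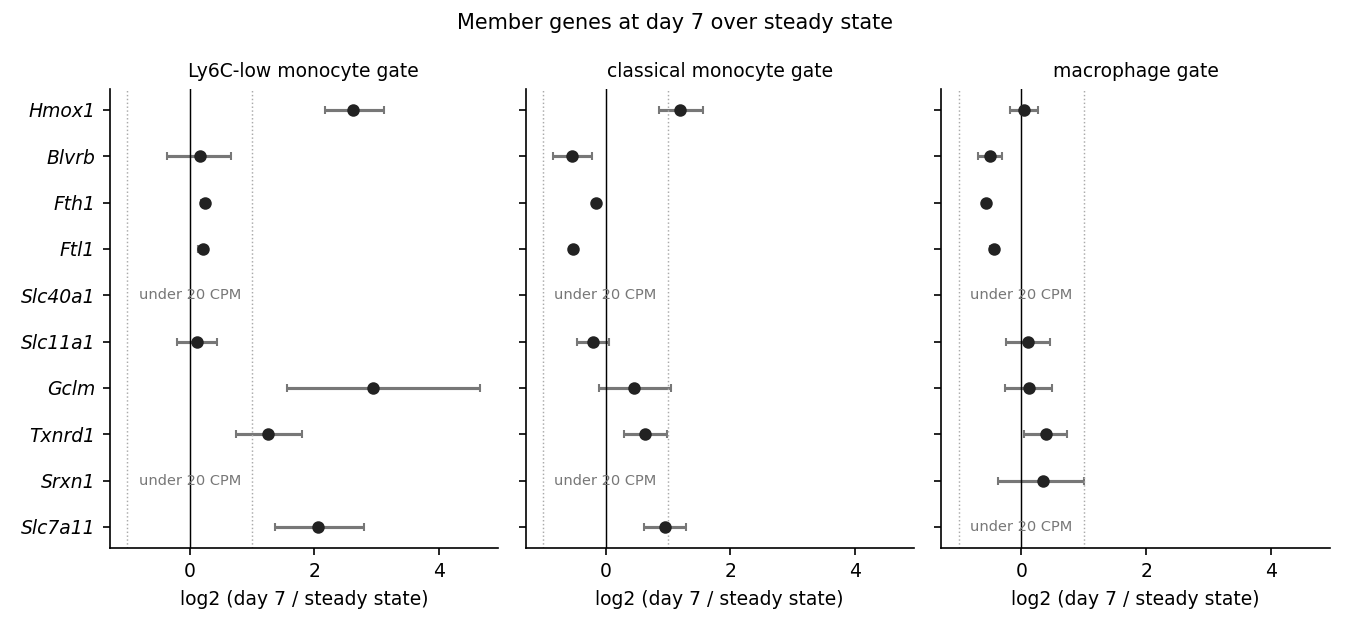
Log2 ratio of day 7 over steady state for each member (rows) in the 3 gates, with 95% intervals of counting error; dotted lines mark 2-fold. In Ly6C-low monocytes Hmox1, Gclm, Txnrd1 and Slc7a11 lay past 2-fold, at 2.63, 2.94, 1.26 and 2.06; in macrophages no member did.

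The extra Hmox1 of the day 7 Ly6C-low monocytes sat in few cells. There, 9 cells (9.28%) had 5 or more Hmox1 UMIs, the highest 50, 33 and 20, and together they held 167 of the 227 UMIs. No steady-state cell of the gate had more than 3, but this depended on the gate. Cells of the Ly6C-low Leiden cluster outside the marker gate reached 62 Hmox1 UMIs at steady state (104 UMIs in 53 cells, 230 CPM). At day 7 such cells reached 165 (311 UMIs in 69 cells, 534 CPM). Of the other day 7 cells of the marker gate, 34 had 1 to 4 UMIs and 54 had none, against 28 and 79 at steady state. The share with a Hmox1 UMI was 44.3% and 26.2%, and after thinning to 3000 UMIs 36.8% of 87 day 7 and 16.7% of 90 steady-state cells. Setting aside cells with 5 or more UMIs, a choice made on the gene itself, left 108 CPM at day 7 and 59.1 CPM at steady state, 1.82-fold. In the classical gate 19 of 524 day 7 and 2 of 149 steady-state cells reached 5 UMIs, and the highest cell had 83 and 7. Macrophages did not differ in this way: 12 of 144 day 7 and 75 of 831 steady-state cells did so (8.33% and 9.03%), with highest counts of 10 and 95.

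**Figure D3:**
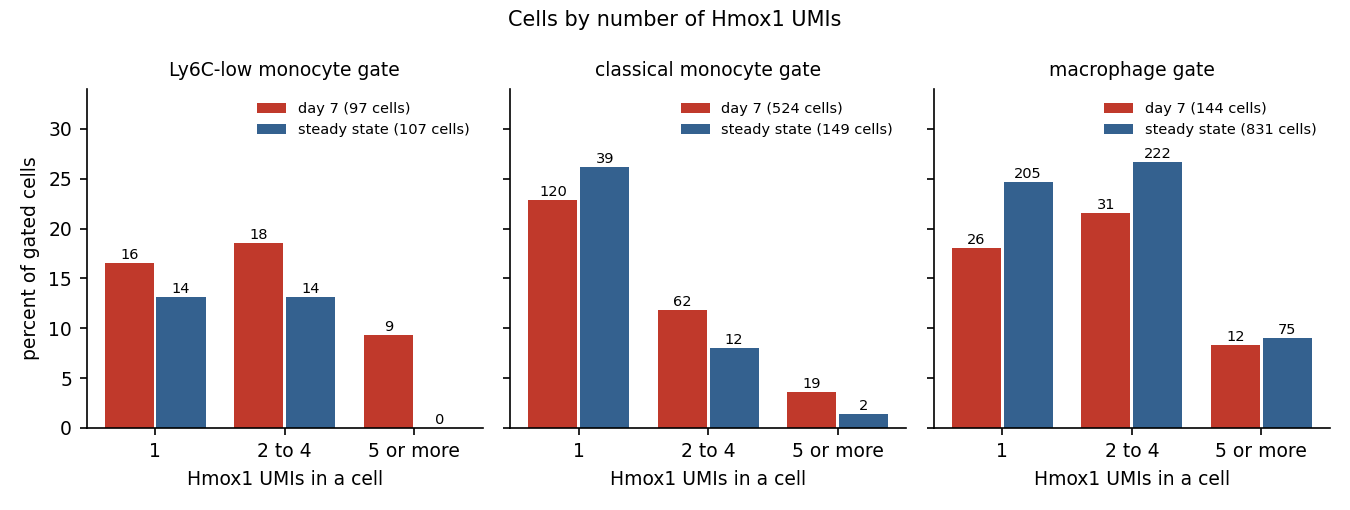
Percent of gated cells with 1, 2 to 4 or 5 or more Hmox1 UMIs, day 7 in red and steady state in blue; numbers above the bars are cells. In the Ly6C-low gate 9 day 7 cells and 0 steady-state cells had 5 or more. Outside this gate, the Ly6C-low Leiden cluster held a steady-state cell with 62.

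The cells with the most Hmox1 also carried more ferritin and Gclm, by classes of Hmox1 UMIs chosen after the data were seen. Within day 7 Ly6C-low monocytes, Fth1 stood at 17401 CPM in the 9 cells with 5 or more Hmox1 UMIs and 4167 CPM in the 54 cells with none, 4.18-fold (log2 2.06, 1.95 to 2.18). Ftl1 was at 10689 and 4263 CPM in those cells (log2 1.33, 1.19 to 1.46), and Blvrb at 202 and 77.2 CPM (1.39, 0.29 to 2.42), though 10 of the 13 Blvrb UMIs of the 9 cells lay in 1 cell. Gclm had 21 UMIs in the 9 cells and 4 in the 54 (326 and 12.9 CPM). A Gclm UMI was held by 5 of the 9 cells, and without the cell that had 14 the 8 others stood at 126 CPM. That same cell also had the most Blvrb, Fth1 and Ftl1 UMIs. Without it the 8 others stood at 13688 CPM of Fth1, 9131 CPM of Ftl1 and 54.0 CPM of Blvrb. Txnrd1 and Slc7a11 did not separate there, with log2 ratios of 0.48 (-0.63 to 1.48) and 1.09 (-0.08 to 2.16). The summed Ly6C-low list was at 7178 CPM in the 9 cells and 7590 CPM in the cells with no Hmox1. All of these cells were gated by that list, so its level says nothing further about what they are. The macrophage list was at 264 and 103 CPM, with Cd163 at 0 UMIs in both. Median surface Ly6C was 398 and 215 per 10000 antibody counts, and median surface CD43 2673 and 2485. The part of the macrophage markers in this result was not tested. All 6 erythroid markers were at 0 UMIs in the 97 day 7 cells, which allows up to 5.93 CPM. At steady state they had 6 UMIs (7.54 CPM) in this gate.

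In day 7 classical monocytes the cells with the most Hmox1 carried more ferritin, Gclm, Slc7a11 and Txnrd1. The 19 cells (3.63% of 524) with 5 or more Hmox1 UMIs, set against the 323 with none, had 11486 and 4999 CPM of Fth1 (log2 1.20, 1.14 to 1.26) and 5644 and 3139 CPM of Ftl1 (0.85, 0.76 to 0.93). Slc7a11 was at 366 and 94.7 CPM (1.95, 1.57 to 2.32), Txnrd1 at 216 and 84.2 CPM (1.36, 0.87 to 1.82) and Gclm at 70.4 and 25.6 CPM (1.46, 0.56 to 2.27). A Txnrd1 UMI was found in 18 of the 19 cells and a Slc7a11 UMI in 12. Markers also differed between the 19 and the 323 cells: the macrophage list was at 254 and 107 CPM, the Ly6C-low list at 1395 and 841 CPM, the neutrophil list at 277 and 961 CPM and the immediate early list at 4879 and 6505 CPM, and their part in these values was not tested. In macrophages the ratios were nearer to 0. The 12 day 7 macrophages with 5 or more Hmox1 UMIs, against the 75 with none, had log2 ratios of 0.35 (0.26 to 0.45) for Fth1, 0.20 (0.03 to 0.37) for Ftl1, 0.62 (0.02 to 1.20) for Blvrb, 0.47 (-0.74 to 1.54) for Gclm and -0.19 (-1.41 to 0.88) for Txnrd1. Their median depths were 9054 and 5951 UMIs. The 75 steady-state macrophages with 5 or more Hmox1 UMIs, against the 329 with none, had log2 ratios of 0.06 (0.03 to 0.08) for Fth1, 0.44 (0.39 to 0.48) for Ftl1, 0.23 (-0.19 to 0.63) for Gclm and 0.28 (-0.13 to 0.68) for Txnrd1, at median depths of 14719 and 8322 UMIs. Of the 20 Slc40a1 UMIs in steady-state macrophages, 12 lay in those 75 cells and 1 in the 329. Cells of 1 library share its preparation, so these values describe the libraries and no difference between gates was tested.

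**Figure D4:**
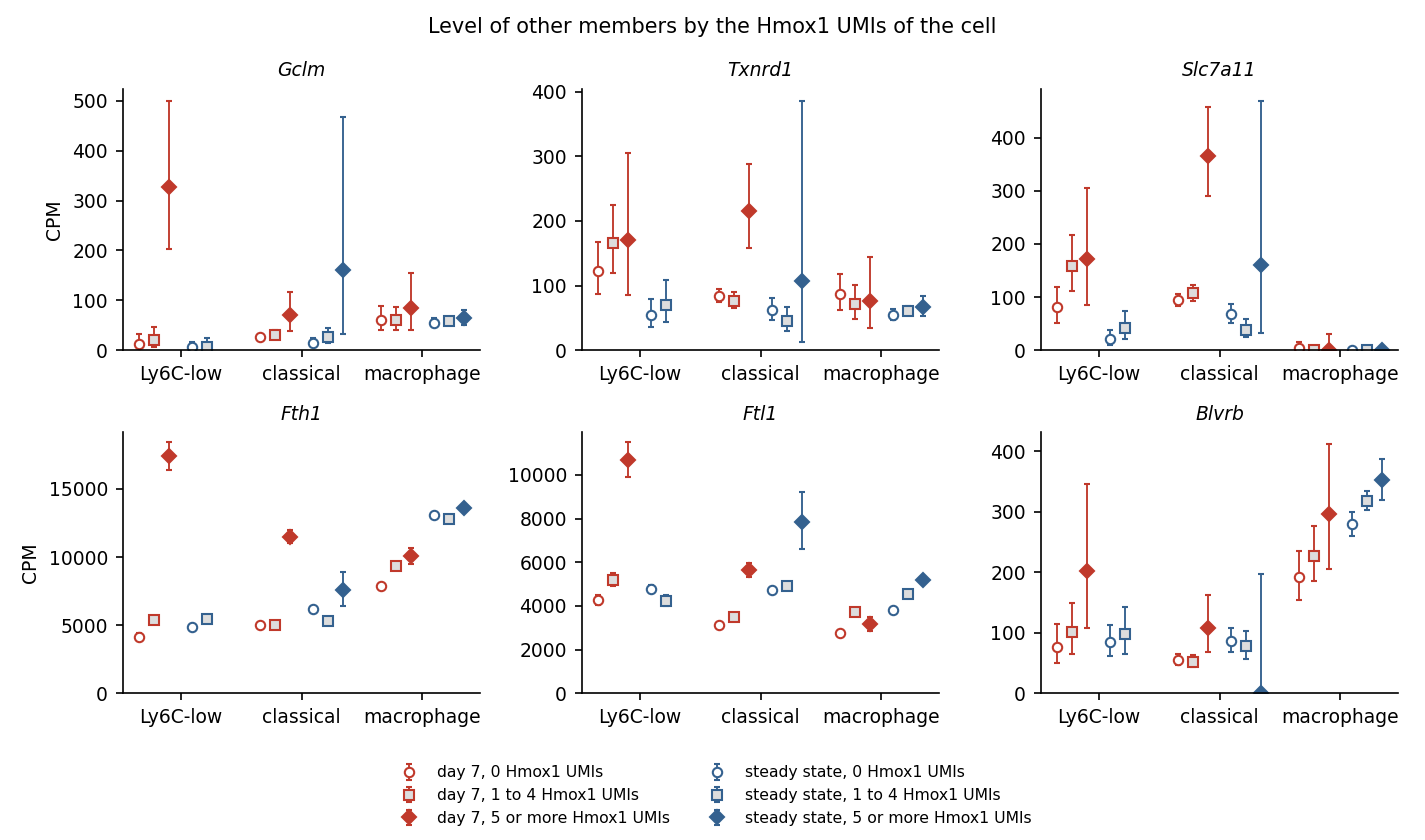
Level (CPM, 95% Poisson interval) of 6 members in cells with 0, 1 to 4 or 5 or more Hmox1 UMIs, by gate, day 7 in red left of steady state in blue. In day 7 Ly6C-low monocytes Fth1 reached 17401 CPM in the 5-or-more class against 4167 CPM in the class with 0. The Ly6C-low gate had no steady-state cell with 5 or more, and the classical gate had 2.

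Co-expression of Hmox1 with Gclm and Slc7a11 was also counted as shares of cells. In day 7 Ly6C-low monocytes Gclm was found in 9 of 43 cells with Hmox1 (20.9%, exact Clopper-Pearson interval 10.0 to 36.0) and in 4 of 54 without (7.41%, 2.06 to 17.9). The intervals overlapped, and after thinning the shares were 6 of 32 (18.8%, 7.21 to 36.4) and 1 of 55 (1.82%, 0.0460 to 9.72). Slc7a11 was found in 16 of 43 cells with Hmox1 (37.2%) and 12 of 54 without (22.2%), and thinned in 11 of 32 and 11 of 55. At steady state 2 of 28 Ly6C-low monocytes with Hmox1 and 3 of 79 without held Gclm.

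In day 7 classical monocytes Gclm was found in 52 of 201 cells with Hmox1 (25.9%) and 59 of 323 without (18.3%), and Slc7a11 in 38.3% (31.6 to 45.4) and 28.8% (23.9 to 34.1). The cells with Hmox1 were deeper, with medians of 10076 and 8669 UMIs. After thinning, the Gclm shares were 10.7% and 4.58% and the Slc7a11 shares 21.4% and 19.3%, so the Slc7a11 shares lay closer together at equal depth. Steady-state classical monocytes held Gclm in 10 of 51 cells with 1 to 4 Hmox1 UMIs (19.6%, 9.82 to 33.1). Of the 96 with none, 9 did (9.38%, 4.38 to 17.1), so the intervals overlapped. Slc7a11 was in 9 of those 51 cells (17.6%) and 22 of the 96 (22.9%). Each gene was in 1 of the 2 cells with 5 or more Hmox1 UMIs. In steady-state macrophages Gclm was in 45.6% of cells with Hmox1 and 32.8% of those without, with median depths of 11499 and 8322 UMIs, and thinned in 35 of 234 and 76 of 525 cells. Pearson's r with Hmox1 over day 7 Ly6C-low cells (97 cells of 1 library, log scale) was highest for Ccl4, a chemokine, at 0.48, then Fth1 and Prdx1, a peroxiredoxin, at 0.44 each; Creg1 and Ftl1 had 0.41, Gclm and Zmiz2 0.40, Tulp4 and P2rx4 0.39 and Dld 0.38. Over the 524 day 7 classical monocytes the highest were Ftl1 (0.23), Cd300ld (0.22), Fth1, Prr13, Marcks and Apbb1ip (0.20 each), Birc3 (0.19), and Pla2g7, Gngt2 and Abi3 (0.18 each), all weak. In the steady-state Ly6C-low cells r with Hmox1 was 0.10 for Ccl4 and Fth1, 0.14 for Ftl1 and Prdx1 and 0.07 for Gclm. No cell there had more than 3 Hmox1 UMIs, which limits r. In the steady-state classical cells r was -0.09 for Fth1, 0.09 for Ftl1, 0.12 for Gclm and 0.18 for Prr13.

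The promoters of the stress genes that were past 2-fold in the Ly6C-low gate and have a RefSeq window are shown because NRF2 and BACH1 act through the antioxidant response element, with core TGACNNNGC, and ATF4 with its partners through elements holding TGATGCAA. The 250 bases before the start of transcription are given 5′ to 3′ on the gene's strand (RefSeq, GRCm38.p6), in lower case with matches on either strand in capitals. Gclm lies on the plus strand at chr3:122245307-122245556, Txnrd1, the second of its 3 listed starts, on the plus strand at chr10:82858956-82859205, and Slc7a11 on the minus strand at chr3:50443614-50443863.
Gclm: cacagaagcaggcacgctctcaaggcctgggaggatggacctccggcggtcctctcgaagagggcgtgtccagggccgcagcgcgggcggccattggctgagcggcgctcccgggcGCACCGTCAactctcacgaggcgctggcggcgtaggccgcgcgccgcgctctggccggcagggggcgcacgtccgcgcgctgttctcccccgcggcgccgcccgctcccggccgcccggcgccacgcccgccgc
Txnrd1: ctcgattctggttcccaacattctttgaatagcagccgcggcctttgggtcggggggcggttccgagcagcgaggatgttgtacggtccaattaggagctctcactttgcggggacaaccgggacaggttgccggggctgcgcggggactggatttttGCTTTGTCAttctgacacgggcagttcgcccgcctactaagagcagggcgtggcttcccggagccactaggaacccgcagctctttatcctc
Slc7a11: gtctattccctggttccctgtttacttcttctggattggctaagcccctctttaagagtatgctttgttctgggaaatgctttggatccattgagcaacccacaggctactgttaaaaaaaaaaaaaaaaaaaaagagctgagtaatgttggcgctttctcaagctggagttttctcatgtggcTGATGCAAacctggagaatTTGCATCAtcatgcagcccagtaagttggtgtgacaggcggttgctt
The Gclm match to TGACNNNGC, read on the opposite strand as GCACCGTCA, begins 134 bases before the start, and the Txnrd1 match, GCTTTGTCA, 92 bases before it. The other listed Txnrd1 starts, not shown, had no match to TGACNNNGC or TGATGCAA. Slc7a11 had no match to TGACNNNGC in this window but held TGATGCAA 66 bases before the start and its reverse complement TTGCATCA 47 bases before it. Of the 10 members, 8 had 12 windows; TGACNNNGC was found for 2 of these 8 genes, against 11.5% of 27025 genes, and TGATGCAA for 1, against 0.918%. The shorter AP-1-like TGACTCA was found for 1, Srxn1, on the opposite strand at 102 and 45 bases before its start, against 5.16% of all genes. A match is a description of letters and not of binding.

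Other genes of the same pathways were counted from lists. Of 25 further NRF2 targets, 15 passed 20 CPM in the Ly6C-low gate, 4 were at least 2-fold higher at day 7 and 1 lower, beside 6.06% and 4.91% of all genes, with a median log2 ratio of 0.49 beside 0.07. The 4 became 3 with median-ratio scaling, Leiden clusters, donor-class cells, a 20% mitochondrial limit or doublets kept, and 2 with a stricter gate. The higher ones were thioredoxin itself (Txn1, 844 and 314 CPM, 2.69-fold), Prdx1 (971 and 485 CPM, 2.00-fold, with 117 of its 604 day 7 UMIs in 1 cell), the glutathione conjugate exporter Abcc1 (23 and 8 UMIs, 3.68-fold) and Gclc, the catalytic partner of Gclm, named after its value was seen (23 and 11 UMIs, log2 1.42, 0.32 to 2.60). The autophagy receptor Sqstm1 was 1.78-fold higher, and the membrane glutathione transferase Mgst1 2.03-fold lower at day 7. Of the genes that control the response, Nfe2l2, which encodes NRF2, was 1.64-fold and its partner Mafg 1.70-fold higher, and 0 of 7 measured genes of that list passed 2-fold, with a median log2 ratio of 0.42. Of 6 heme transport and breakdown genes measured, 2 were at least 2-fold higher, beside the same 6.06% of all genes, the heme exporter Flvcr1 (33 and 18 UMIs, 2.34-fold) and Spic, a factor of heme-handling macrophages, named after its value was seen (15 and 9 UMIs, log2 1.09, -0.19 to 2.47); Hmox2, the constitutive heme oxygenase, was 1.82-fold lower. Of 6 measured ATF4 response genes, Gdf15 was 14.7-fold higher on 23 and 2 UMIs, Atf4 was 1.66-fold higher and Ddit4 2.81-fold lower. Slc3a2, the heavy chain that pairs with Slc7a11, was 1.90-fold higher, and Gpx4, which reduces lipid peroxides, 1.57-fold lower.

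Handling genes and markers of other cells also differed between the libraries. The summed list of 16 immediate early and dissociation genes, which respond to handling of tissue, stood at 4768 CPM at day 7 and 8525 CPM at steady state in Ly6C-low monocytes, 6564 and 11926 CPM in classical monocytes, and 8640 and 8642 CPM in macrophages; its part in the results was not tested. Neutrophil markers were at 317 and 41.5 CPM in the Ly6C-low gate, with 7 of 8 and 5 of 8 markers seen, and macrophage markers at 99.6 and 216 CPM. The classical monocyte list was at 1119 and 617 CPM in that gate and the cDC2 list at 1641 and 2675 CPM, and their part in the members' values was not tested. Ly6c2 UMIs were found in 30 of 97 day 7 and 22 of 107 steady-state cells of that gate, and Hmox1 was 5.93-fold higher at day 7 in cells with Ly6c2 and 6.32-fold in cells without. Slc7a11 was 12.5-fold higher in the cells with Ly6c2 (38 and 3 UMIs) and 2.70-fold in those without (37 and 20 UMIs).

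In classical monocytes Hmox1 was past 2-fold at day 7 and the 7 other members measured were not. Hmox1 had 621 UMIs (119 CPM, 110 to 129) in 524 day 7 cells and 77 UMIs (51.9 CPM, 41.0 to 64.9) in 149 steady-state cells, a log2 ratio of 1.20 (0.86 to 1.56). It was the 1 member of 8 measured at least 2-fold higher, and 0 were 2-fold lower, against 3.19% and 1.40% of 5795 genes. Slc7a11 stood at 111 and 57.3 CPM (0.95, 0.62 to 1.30), Txnrd1 at 86.6 and 56.0 CPM (0.63, 0.29 to 0.99) and Gclm at 29.6 and 21.6 CPM (0.45, -0.10 to 1.05). The Gclm value was -0.02 with Leiden clusters. Srxn1 had 89 UMIs (17.1 CPM) at day 7 and 12 UMIs (8.09 CPM) at steady state, under the 20 CPM minimum. Ftl1 was lower at day 7, at 3378 and 4846 CPM (-0.52, -0.56 to -0.48), as were Blvrb at 56.2 and 81.6 CPM (-0.54, -0.85 to -0.22) and, slightly, Fth1 at 5266 and 5849 CPM (-0.15, -0.19 to -0.12). Slc11a1 gave -0.20 (-0.45 to 0.06). Hmox1 in this gate also leaned on few cells, since without the cells of 5 or more UMIs its level was 53.8 CPM at day 7 and 44.4 CPM at steady state.

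Of the 25 further NRF2 targets, 14 were measured in classical monocytes and none was past 2-fold in either direction, with a median of 0.11 beside 0.14 for all genes. The pentose phosphate enzymes of the list divided: G6pdx and Pgd were 1.57-fold and 1.37-fold higher, and Taldo1 and Tkt 1.53-fold and 1.28-fold lower at day 7. In the heme, iron and glutathione lists the genes past 2-fold were the superoxide dismutase Sod1 (281 and 109 CPM, 2.57-fold higher), the siderophore-binding lipocalin Lcn2 (69.9 and 22.3 CPM, 3.14-fold), which is also a neutrophil granule gene, and Fech, the last enzyme of heme synthesis (109 and 13 UMIs, 2.39-fold). Of the 13 immediate early and dissociation genes measured, 4 were at least 2-fold lower, beside 1.40% of all genes. Neutrophil markers stood at 839 and 228 CPM in this gate, and their part in the Lcn2 value was not tested. Atf4 was 1.93-fold higher.

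In macrophages Hmox1 was at the same level in both libraries within counting error. It had 189 UMIs (182 CPM, 157 to 209) in 144 day 7 cells and 1580 UMIs (176 CPM, 167 to 185) in 831 steady-state cells, and the log2 ratio of 0.04 (-0.18 to 0.26) changed sign, to -0.07, when the median of all genes was set to 0. Both ferritin chains and Blvrb were lower by less than 2-fold. Fth1 was at 8742 CPM at day 7 and 12961 CPM at steady state (-0.57, -0.60 to -0.54), Ftl1 at 3230 and 4403 CPM (-0.45, -0.50 to -0.40) and Blvrb at 219 and 310 CPM (-0.50, -0.70 to -0.31). Txnrd1 was at 78.8 and 59.7 CPM (0.40, 0.05 to 0.74), and Srxn1, Gclm and Slc11a1 had intervals spanning 0. None of 8 measured members was past 2-fold in either direction, against 1.27% higher and 0.913% lower of 6459 genes. Among host-class macrophages alone (92 and 698 cells) the log2 ratios were -0.01 for Hmox1, -0.54 for Fth1, -0.44 for Ftl1 and -0.59 for Blvrb, so ferritin was also lower at day 7 within the host-class cells. Among donor-class macrophages (12 and 70 cells) Hmox1 was at 313 and 185 CPM on 20 and 130 UMIs, a log2 ratio of 0.76 (0.00 to 1.45), and Fth1 gave -0.85. The donor class is uncertain where CD45 counts are few. It took in 14 of 15 day 7 and 34 of 64 steady-state fibroblast-gate cells, at median CD45.1 counts of 3 and 0. The macrophage gate as a whole had median CD45.1 counts of 3 and 1. The summed macrophage markers were also lower at day 7, at 14679 and 21359 CPM, and median depth was 6934 and 10151 UMIs; the part of either in the ferritin values was not tested.

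Around this, the transferrin receptor Tfrc was 1.68-fold higher in day 7 macrophages (98.9 and 58.8 CPM) and the iron regulatory protein gene Ireb2 1.59-fold, while Alas1, the first enzyme of heme synthesis, was 2.01-fold lower (22 and 381 UMIs) and Hmox2 1.60-fold lower. Cd163, the scavenger receptor for haptoglobin-bound hemoglobin, was 1.43-fold higher in RNA, and the repressor Bach1 1.51-fold. Of 10 measured genes of iron uptake, storage and sensing outside the set, 8 lay above 0 and 2 below, with a median log2 ratio of 0.27. Of all 6459 genes measured in this gate, 3883 lay above 0 and 2576 below, with a median of 0.12. Of the 16 NRF2 targets measured none was past 2-fold, beside 1.27% higher and 0.913% lower of all genes. Their median was -0.02, beside the same 0.12.

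Surface CD163, the protein of Cd163, was measured by antibody and had no part in the choice of the genes. Macrophages of each library were divided into 3 equal groups by their share of CD163 antibody, lowest, middle and highest, a split chosen after the data were seen. In day 7 macrophages Hmox1 stood at 124 CPM (90.4 to 166) in the 48 cells of the lowest group, 175 CPM (134 to 226) in the middle group and 250 CPM (199 to 310) in the highest group. At steady state it stood at 118 CPM (107 to 131), 133 CPM (121 to 147) and 289 CPM (269 to 309) in groups of 277 cells. The highest over the lowest group gave log2 ratios of 1.01 (0.47 to 1.57) at day 7 and 1.29 (1.11 to 1.47) at steady state. The share of cells with a Hmox1 UMI differed less, at 52.1% and 41.7% in the highest and lowest group at day 7 and 63.9% and 61.0% at steady state. Depth ran the other way, with medians of 6523 and 7761 UMIs in the highest and lowest group at day 7 and 9274 and 10842 at steady state. Fth1 gave 0.46 (0.39 to 0.53) at day 7 and 0.14 (0.12 to 0.16) at steady state, while Ftl1 gave 0.09 (-0.04 to 0.21) and -0.18 (-0.22 to -0.15). Gclm, Txnrd1 and Srxn1 ranged from -0.08 to 0.33. The groups are ranges of a continuous share and not cell types.

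**Figure D5:**
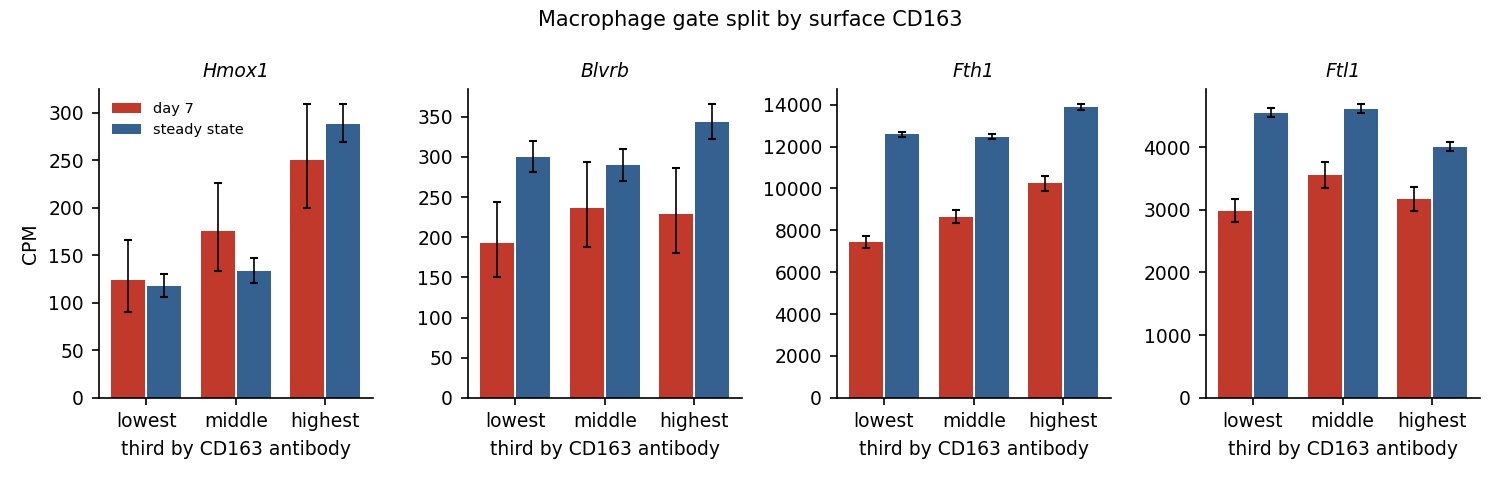
Level (CPM, 95% Poisson interval) of 4 members in macrophages of the lowest, middle and highest group by surface CD163 within each library, day 7 in red and steady state in blue. Hmox1 was 250 CPM in the highest and 124 CPM in the lowest group at day 7, and 289 and 118 CPM at steady state.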

How the data were processed

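The deposited values are raw counts of UMIs for each gene and antibody in each cell. Per the submitters' processing notes, Cell Ranger 6.1.2, Seurat 4.4.0 and the build mm10 were used, with no role stated. The depth was 10824984 and 17060676 UMIs in the kept day 7 and steady-state cells. Cells needed 500 UMIs, 200 genes and at most 10% mitochondrial UMIs, which left 1210 of 1277 day 7 and 1637 of 1912 steady-state barcodes, and Scrublet in scanpy 1.11.5 then marked 10 and 7 doublets, which were removed. A cell entered a gate when its mean log(1 + counts per 10000) over the gate's markers was at least 1.0 and led every other list by 0.25, a scoring rule set after its distribution was seen; 248 day 7 and 224 steady-state cells lay near the cut. UMIs were summed per gate, scaled to CPM and compared as ratios with conditional exact Poisson intervals (scipy 1.17.1) for genes of at least 20 CPM in either library; a count of 0 was read against a floor of 3 counts. The ratio script was checked on simulated data. Host and donor classes came from a Gaussian mixture on the CD45.2 and CD45.1 antibodies (scikit-learn 1.9.0). The members and lists were chosen with earlier results of these data known. Named genes of a list are up to 4 per direction with the interval bound farthest from no change, and for likeness to Hmox1 the 10 highest Pearson correlations over genes found in 10% of cells. Alternatives were other scalings, CPM minimums, gates, thinning to 3000 UMIs, equal weight per cell and Leiden classes, and, chosen after seeing the data, leaving out the top cell of each library.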

Additional observations from a re-analysis of the deposited data

Results flagged for a closer look

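Summed over all cells of a gate, the ferritin chains differed in direction between gates under the same contrast of day 7 over steady state. Fth1 had log2 ratios of 0.25 in the Ly6C-low gate, -0.15 in the classical gate and -0.57 in the macrophage gate. Ftl1 had 0.21, -0.52 and -0.45 in the same order of gates. The Ly6C-low values depended on the cells counted. Among the 54 day 7 and 79 steady-state Ly6C-low cells without a Hmox1 UMI, Fth1 gave -0.23 (-0.32 to -0.13). Ftl1 gave -0.16 (-0.26 to -0.07) in those cells. Ly6C-low cells without Ly6c2 gave 0.05 (-0.03 to 0.13) for Fth1 and 0.08 (-0.01 to 0.16) for Ftl1. Those with Ly6c2 gave 0.56 and 0.42. With the stricter gate the values were 0.08 and 0.16. With 1 library per group the difference between gates was not tested, and each value carries counting error only.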

How the results depend on the processing

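No paired analysis was possible because each group was a single library. Of 373 values recomputed under alternatives, 315 stayed within the interval or 1.5 times the count first reported and 58 moved. Of the 121 that belong to the main results, 27 moved. A turn of direction was counted only for log2 ratios of single members past 2-fold, and 0 of those turned. The counts and shares among the 373 could not be called turned. Smaller log2 ratios did change sign, such as Hmox1 in macrophages under 6 of 10 alternatives and Blvrb in Ly6C-low monocytes under 3 of 11. With Leiden classes in place of marker gates the log2 ratio of Hmox1 in Ly6C-low monocytes was 1.88, and that of steady-state macrophages over Ly6C-low monocytes 0.60. Thinned cells gave Hmox1 1.62 in classical monocytes and -0.25 in macrophages, where equal weight per cell gave 0.28. Classical members past 2-fold numbered 2 with Leiden classes, 2 with equal weight per cell and 2 without the top cell, and the NRF2 targets past 2-fold higher in the Ly6C-low gate numbered 2 with the stricter gate. Counts of all genes moved with the CPM minimum. At minimums of 5 CPM, 100 CPM and none, the Ly6C-low gate had 823, 55 and 974 genes higher and 775, 51 and 865 lower, the classical gate 561, 18 and 925 higher and 220, 24 and 801 lower, and the macrophage gate 365, 5 and 1337 higher and 288, 7 and 522 lower. The cause was not tested, except that a lower minimum admits genes of few UMIs. Leaving out a replicate was not possible with 1 library per group.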

Other observations

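Cells that passed no gate held 24.6% of the Hmox1 UMIs of the day 7 library and 16.1% of those of the steady-state library. Among them, 6 day 7 cells, all 6 of donor class, had 10 or more Hmox1 UMIs and 259 in sum, and 8 steady-state cells had 242 in sum. In these, 1 cell held 165 of the 259 and 1 cell held 104 of the 242. Their markers were mixed, with cDC2, classical and Ly6C-low lists at 4165, 2638 and 1975 CPM in the 6 day 7 cells, and cDC2 and macrophage lists at 13522 and 7662 CPM in the 8 steady-state cells. The 6 day 7 cells had 564 CPM of Gclm and 19814 CPM of Fth1, against 33.8 and 5802 CPM in the 227 other ungated day 7 cells. The 8 steady-state cells had 77.4 CPM of Gclm and 15148 CPM of Fth1, against 39.5 and 7319 CPM in the 239 others. The day 7 fibroblast gate had 21 Hmox1 UMIs (295 CPM) in 3 of its 15 cells, 11 of them in 1 cell, against 6 UMIs (9.49 CPM) in 5 of 64 steady-state cells.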
